A study of Ovis aries with 62 samples.

Results

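ABCC3 and ATP8A1 encode membrane transporters of the rumen wall, and both were chosen by their positive correlation with CH4 production, among these same sheep. They are 2 of the 16011 genes in the table (ABCC3, ENSOARG00000003559; ATP8A1, ENSOARG00000014541). RNA sequencing covered the whole thickness of the ventral rumen wall in 62 adult Merino ewes, 1 library per sheep, in test blocks 1 to 4 of 16, 16, 14 and 16 sheep. A block was a test period, all sheep ate lucerne and oat chaff, and none was left untreated or given another treatment. The labels gave CH4 production, dry matter intake (DMI) and live weight, and CH4 yield is CH4 production over DMI. The study used ewes of 4 Merino sires, so most shared a sire with others. The labels do not give the sires, so the tests take the sheep as independent and no p-value takes this kinship into account. Because CH4 production chose both genes, their slopes on it are given as a description without a test, and every test of them below keeps CH4 production in the fit.

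ABCC3 is an ATP-binding cassette transporter, also known as MRP3, that exports organic anions from cells, including conjugates of glucuronic acid and bile salts, and in polarized epithelia it sits in the basolateral membrane. ATP8A1 is a P4-type ATPase, a flippase that moves aminophospholipids, phosphatidylserine above all, from the outer to the cytosolic leaflet of a membrane, and it takes part in vesicle traffic. The rumen wall joins a stratified epithelium, which absorbs short chain fatty acids and makes ketone bodies from butyrate, to layers of smooth muscle. A change in the level of a gene in such a sample can come from the number of cells that express it or from the RNA of each cell, and these cannot be told apart here.

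The level of ABCC3 over the 62 sheep was 9.28 ± 0.36 log2 CPM (SD), where CPM scales the reads of a gene to the size of its library. The lowest sheep had 325 CPM, the median was 645 CPM and the highest had 1049 CPM. In block 1 the log2 CPM of ABCC3 went from 8.52 to 10.003 with a median of 9.40. In block 2 it went from 9.06 to 10.04 with a median of 9.34, so no sheep of this block fell to the low values of the other blocks. In block 3 it went from 8.35 to 9.68 with a median of 9.06. In block 4 it went from 8.50 to 9.73 with a median of 9.33. Ordered by mean the blocks ran 1 (9.40 ± 0.32), 2 (9.38 ± 0.27), 4 (9.27 ± 0.38) and 3 (9.03 ± 0.38), the ranges overlapped, and each step in this order was smaller than the SD of either block.

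The level of ATP8A1 was 7.54 ± 0.38 log2 CPM (SD, n = 62). The lowest sheep had 91.2 CPM, the median was 194.2 CPM and the highest had 303 CPM. In block 1 the log2 CPM of ATP8A1 went from 6.51 to 8.005 with a median of 7.62. In block 2 it went from 6.98 to 8.24 with a median of 7.70. In block 3 it went from 6.71 to 8.18 with a median of 7.44, and in block 4 from 6.78 to 8.13 with a median of 7.62. The order by mean was block 2 (7.63 ± 0.35), 4 (7.58 ± 0.40), 1 (7.51 ± 0.35) and 3 (7.42 ± 0.43), again with steps below the SD and ranges that overlapped. Each ABCC3 value rested on 2622 to 8425 reads and each ATP8A1 value on 772 to 2462 reads, so counting error was small against the spread between sheep.

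**Figure D1:**
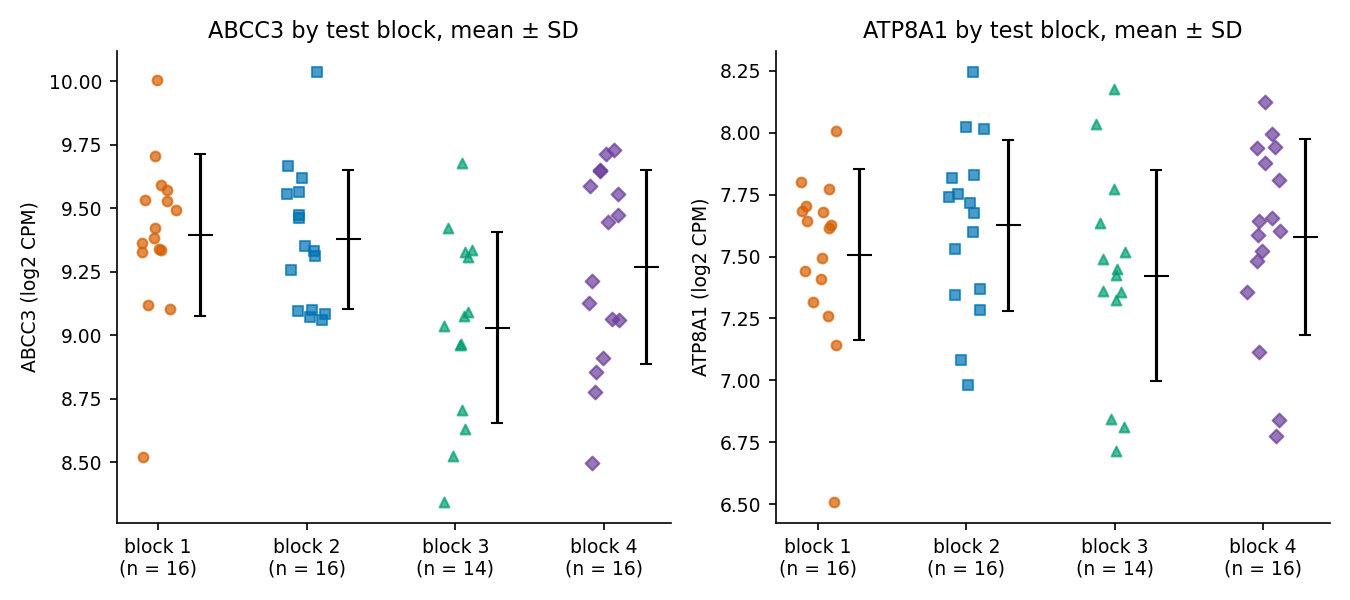
ABCC3 (left) and ATP8A1 (right) in log2 CPM in each sheep by test block, with black bars for mean ± SD. The ranges of the 4 blocks overlapped for both genes, and block 3 had the lowest mean for both.

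Low sheep were partly the same for both genes. Of the 10 sheep lowest in ABCC3 and the 10 lowest in ATP8A1, 5 were shared, and 5 were also shared among the 10 highest. The lowest ABCC3 level was that of oz183 of block 3 (8.35 log2 CPM), which was also second lowest in ATP8A1 (6.71 log2 CPM). Sheep oz218 of block 4 was second lowest in ABCC3 (8.50) and among the 3 lowest in ATP8A1 (6.78), and its library was the deepest of all. Other extremes belonged to 1 gene. Sheep oz40 of block 1 was lowest in ATP8A1 (6.51) without being among the 10 lowest in ABCC3, and oz132 of block 2, with the highest CH4 production of all (34.6 g/d), was highest in ABCC3 (10.04) without being among the 10 highest in ATP8A1.

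The first comparison is the one that chose the genes, the relation with CH4 production, which went from 13.4 to 34.6 g/d. The slope of ABCC3 was 0.17 log2 units per 5 g/d of CH4 (SE 0.0435), and that of ATP8A1 was 0.18 (SE 0.0451). Pearson's r was 0.443 for ABCC3 and 0.442 for ATP8A1 (Spearman's rho 0.477 and 0.447, n = 62), and without the 2 sheep farthest from the median of CH4 production it was 0.364 and 0.399. Ranked by the moderated t of limma over all 16011 genes, ATP8A1 stood ninth and ABCC3 eleventh (ranks 9 and 11). Neither was among the 2 genes with an adjusted p under 0.05 in limma, which are 0.0125% of the genes tested and have no symbol. At an unadjusted p under 0.05 there were 1449 genes (9.05%).

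The ends of the CH4 range show what the slope stands for. In the 10 sheep of lowest CH4 production (13.4 to 19.5 g/d) ABCC3 had a median of 9.08 log2 CPM, and 2 of the 10 lay above the median of all sheep. In the 10 sheep of highest CH4 production (29.2 to 34.6 g/d) its median was 9.48, and 9 lay above. The median of ATP8A1 was 7.31 at the low end, with 2 of 10 above the median of all sheep, and 7.76 at the high end, with 10 of 10 above. At the high end ATP8A1 spread little (SD 0.14), against an SD of 0.44 at the low end.

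**Figure D2:**
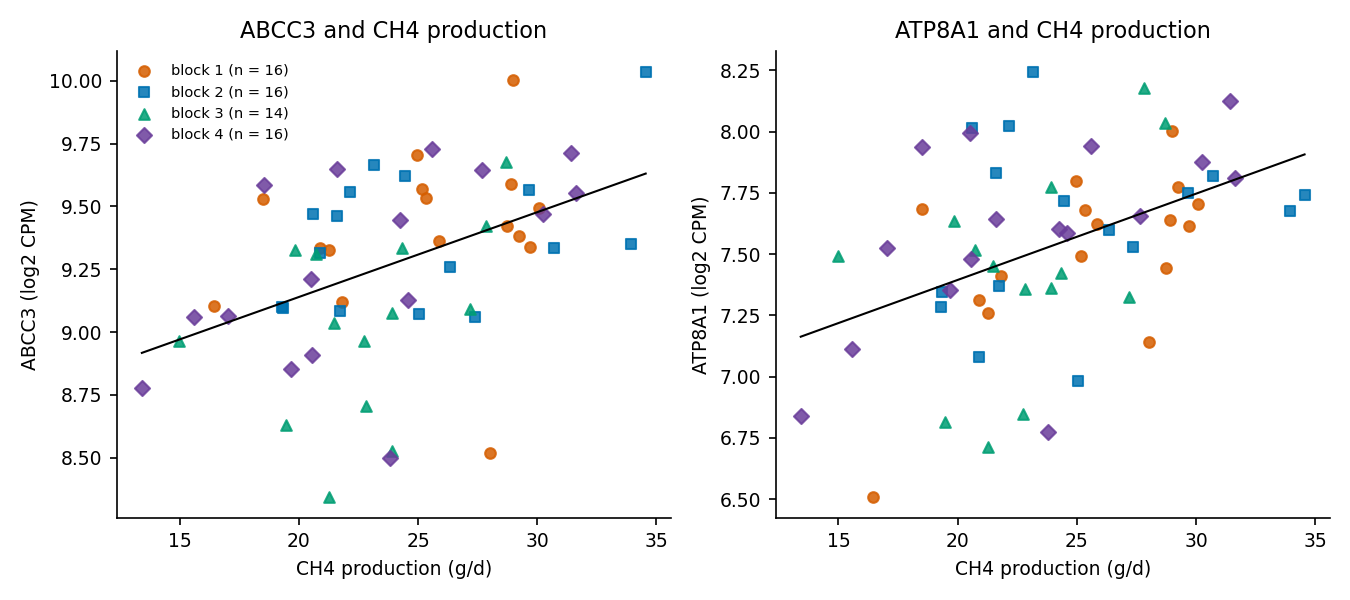
ABCC3 (left) and ATP8A1 (right) in log2 CPM against CH4 production in g/d, 1 point per sheep with color and shape for the block, and the line fitted over all 62 sheep. Both lines go up, by 0.17 and 0.18 log2 units per 5 g/d, with a wide scatter in the middle of the CH4 range.

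Within blocks 1 to 4 the r of ABCC3 with CH4 production was 0.189, 0.408, 0.418 and 0.565. For ATP8A1 it was 0.601, 0.188, 0.448 and 0.565. The slope of ABCC3 was shallowest in block 1 (0.07 per 5 g/d, SE 0.0974) and that of ATP8A1 in block 2 (0.07, SE 0.0916). These within-block values are a description, since the same sheep chose the genes. Over the whole table, 0 of 16011 genes passed an F test in limma for slopes that differ between blocks (0%; 1187 at an unadjusted p under 0.05). With the muscle genes, the block or the read depth added to the fit, the slopes on CH4 production lay between 0.15 and 0.17 for ABCC3 and between 0.17 and 0.18 for ATP8A1.

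DMI, CH4 yield and live weight were tested next, to see whether they relate to the genes beyond CH4 production. CH4 production went closely with DMI (r = 0.860, n = 61), so the DMI fit has little room to separate the 2 traits. It went less closely with live weight (r = 0.488, n = 62), where that limit is weaker. Sheep oz151 was left out of DMI and CH4 yield because of its very low labeled DMI. Its labeled CH4 production (23.9068 g/d) was the same as that of oz224, also of block 3. Whether that label is right cannot be told, and oz151 stayed in the fits over 62 sheep. Taken alone, DMI had r = 0.401 with ABCC3 and 0.367 with ATP8A1, and 0.411 and 0.361 without the 2 sheep farthest from its median. With CH4 production in the fit, ABCC3 changed by 0.10 log2 units per kg/d of DMI (95% CI -0.47 to 0.66, limma adjusted p = 0.890) and ATP8A1 by -0.07 (95% CI -0.66 to 0.52, adjusted p = 0.923). No gene passed (0 of 16011, or 0%, with 2431 at an unadjusted p under 0.05).

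CH4 yield had r = -0.112 with ABCC3 and -0.0683 with ATP8A1, which became -0.0138 and 0.0863 without the 2 sheep farthest from its median. Its limma slopes with CH4 production in the fit had adjusted p = 0.971 and 0.951 and 0 genes passed (0%; 1511 at an unadjusted p under 0.05). Live weight had r = 0.397 with ABCC3 and 0.405 with ATP8A1, which became 0.268 and 0.325 without the 2 sheep farthest from its median. With CH4 production in the fit the slopes were 0.010 log2 units per kg for ABCC3 (95% CI -0.00081 to 0.021) and 0.011 for ATP8A1 (95% CI -0.00024 to 0.023). The limma adjusted p was 0.924 and 0.918, the unadjusted p 0.0685 and 0.0549, and 0 genes passed (0%; 878 at an unadjusted p under 0.05).

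The block comparison asks whether the genes differed between the test periods at a given CH4 production. In limma 26.3% of all genes differed between the 4 blocks and 37% differed between block 1 and blocks 2–4. These were 4213 and 5920 genes, and 1213 and 2074 with the level of muscle genes as a covariate. ABCC3 did not pass over the 4 blocks (F = 2.84, adjusted p = 0.123, unadjusted p = 0.0449), nor did ATP8A1 (F = 0.94, adjusted p = 0.582). Block 1 minus blocks 2–4 was 0.11 log2 units for ABCC3 (SE 0.0935, 95% CI -0.08 to 0.30, adjusted p = 0.370). For ATP8A1 it was -0.10 (SE 0.0972, 95% CI -0.30 to 0.09, adjusted p = 0.435).

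These block results turned on what else was held constant. Block 1 had the highest muscle mean, the mean log2 CPM of 647 genes of the rumen muscle cluster (6.24 ± 0.33, against 5.77 to 5.84 in the other blocks), and the lowest median read depth. With the muscle mean as a covariate ABCC3 was higher in block 1 by 0.32 log2 units (SE 0.0953, adjusted p = 0.0192) and differed over the 4 blocks (adjusted p = 0.0124). After quantile normalization the block 1 difference was 0.23 (adjusted p = 0.0393). With log2 assigned reads as a covariate, a setting added after the data were seen, it was -0.01 (adjusted p = 0.942). The ATP8A1 difference moved in the same directions, to 0.07 with the muscle mean held (adjusted p = 0.704) and to -0.29 with the reads held (adjusted p = 0.0125).

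Both genes fell with the muscle mean. Per log2 unit of the muscle mean and at a given CH4 production, ABCC3 fell by 0.29 (SE 0.102, limma adjusted p = 0.0145) and ATP8A1 fell by 0.35 (SE 0.104, adjusted p = 0.00288). This puts them among 55.1% of all genes that passed, 29.1% being lower and 26% higher with more muscle. CH4 production itself had r = -0.0198 with the muscle mean. After quantile normalization the slope of ABCC3 was -0.12 with an adjusted p of 0.351, and that of ATP8A1 was -0.25 with an adjusted p of 0.0290.

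Within each block and with CH4 production held constant, the r of both genes with the muscle mean was negative. In block 1 it was -0.117 for ABCC3 and -0.0787 for ATP8A1. In blocks 2 to 4 it was -0.845, -0.446 and -0.610 for ABCC3 and -0.491, -0.491 and -0.577 for ATP8A1. With nothing held constant the block 1 values were -0.0239 and 0.197, so the sign for ATP8A1 in block 1 turned with CH4 production. Without block 1 the slopes at a given CH4 production were -0.58 for each gene (SE 0.122 and 0.139, adjusted p = 0.000159 and 0.000764). A test of the difference in slope between block 1 and blocks 2–4, added after this pattern was seen, gave 0.43 for ABCC3 (SE 0.260, adjusted p = 0.519) and 0.61 for ATP8A1 (SE 0.280, adjusted p = 0.345), where 0.643% of all genes passed. The slopes are therefore not shown to differ.

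**Figure D3:**
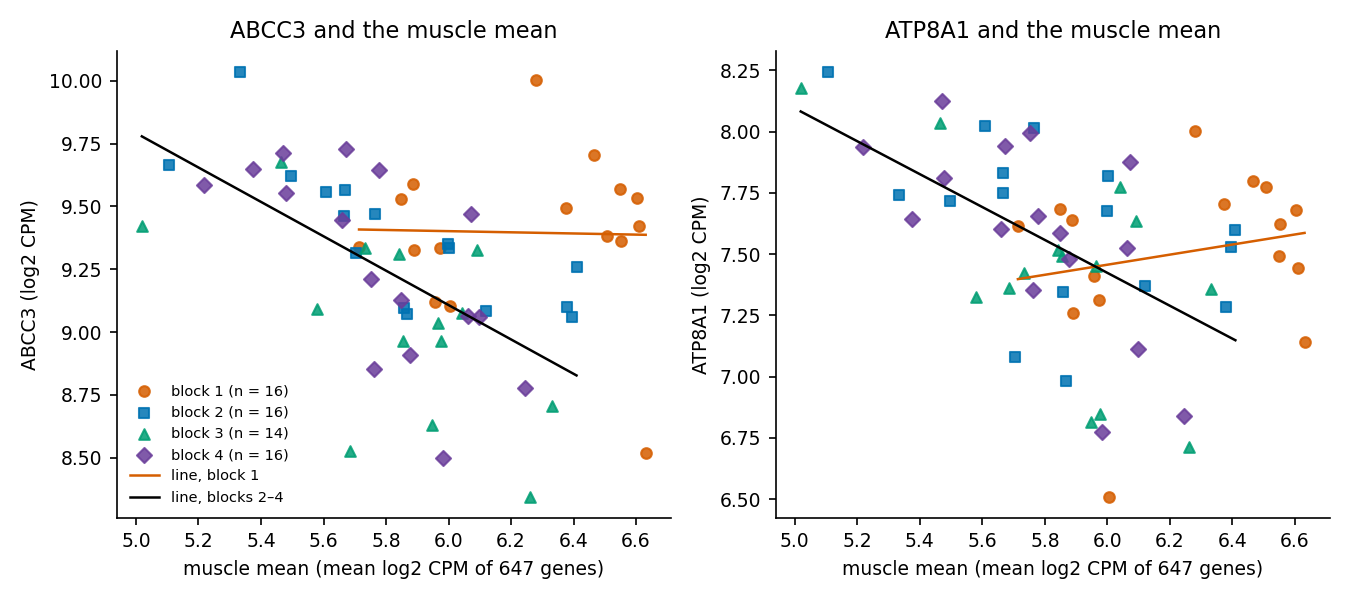
ABCC3 (left) and ATP8A1 (right) in log2 CPM against the muscle mean, the mean log2 CPM of 647 muscle genes, 1 point per sheep, with a line fitted within block 1 (orange) and another over blocks 2–4 (black). The lines leave CH4 production out of the fit. The black lines go down and the block 1 lines are flat or go up, whereas with CH4 production held constant the block 1 r was -0.117 and -0.0787, and the difference in slope did not pass its test.

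Read depth also went with both genes. The libraries held 4208032 to 12130080 reads assigned to genes (median 7923973). At a given CH4 production ABCC3 fell by 0.37 per doubling of the assigned reads (SE 0.111, limma adjusted p = 0.0270) and ATP8A1 fell by 0.42 (SE 0.113, adjusted p = 0.0129), in a test added after the data were seen that 9.96% of all genes passed. Within blocks r was -0.245 to -0.376 for ABCC3 and -0.339 to -0.516 for ATP8A1. With block in the fit the adjusted p was 0.142 for ABCC3 and 0.0189 for ATP8A1. CH4 production had r = -0.00630 with the log2 reads, and the slopes on CH4 production with the reads in the fit were 0.17 for ABCC3 and 0.18 for ATP8A1.

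ABCC3 and ATP8A1 went together between sheep beyond CH4 production. With CH4 production held constant r was 0.666 (95% CI 0.498 to 0.786, rho = 0.624, n = 62). The permutation p was 1e-05, the smallest that 100000 permutations can give, and 5e-05 after adjustment over 15 relations. The study had placed both genes among coexpressed metabolism genes with these same libraries, so this p is not independent evidence of the relation. Within blocks 1 to 4 the r was 0.732, 0.649, 0.722 and 0.759, so the relation did not rest on a single test period. The r was 0.676 without the 2 farthest sheep and 0.617 with the muscle mean held constant as well. With the muscle mean and the assigned reads held constant as well it was 0.496 (permutation adjusted p = 0.000173).

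**Figure D4:**
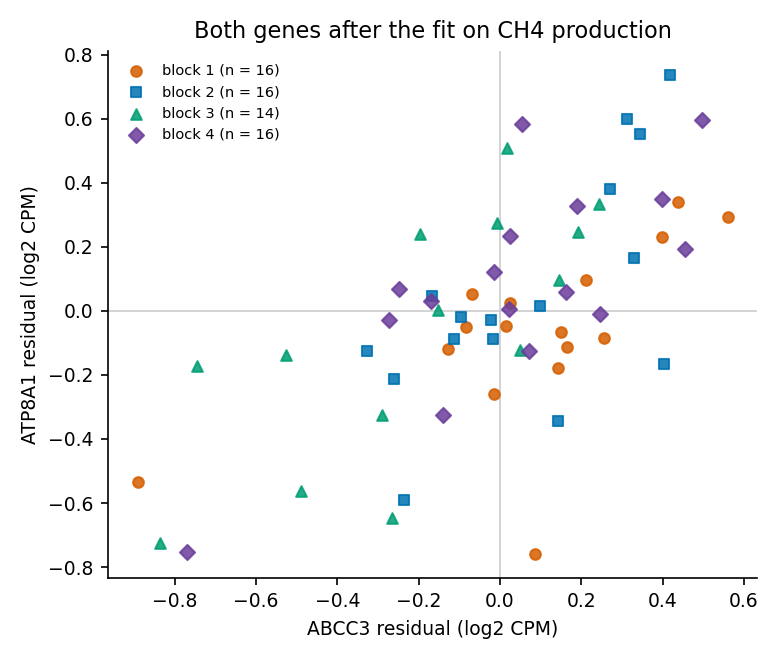
Residual log2 CPM of ATP8A1 against that of ABCC3 after a fit of each on CH4 production, 1 point per sheep with color and shape for the block. Sheep low in the one tend to be low in the other in every block (r = 0.666 over 62 sheep).

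The study had sorted the coexpressed genes into clusters, with ABCC3 in the lipid/oxo-acid metabolism cluster (41 genes) and ATP8A1 in the larger cluster of other metabolism (354 genes). The clusters were built with these libraries, so a relation with a cluster mean is not independent evidence of it. Each gene was left out of its own cluster mean. With CH4 production held constant ATP8A1 had r = 0.684 with the lipid/oxo-acid mean (rho = 0.620, permutation adjusted p = 5e-05) and 0.319 with the mean of its own cluster (rho = 0.358, adjusted p = 0.0299). This second relation was lost with the muscle mean held as well (r = -0.0589, adjusted p = 0.649), and within blocks 1 to 4, at a given CH4 production, its r was -0.215, 0.478, 0.680 and 0.719. ABCC3 had r = 0.546 with the lipid/oxo-acid mean, its own cluster, and 0.123 with other metabolism (adjusted p = 0.509), which turned to -0.368 with the muscle mean held as well (adjusted p = 0.00594).

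In blocks 2 to 4 the lipid/oxo-acid coefficients were 0.838, 0.736 and 0.891 for ABCC3 and 0.809, 0.900 and 0.869 for ATP8A1. In block 1 they were 0.388 and 0.305, and this gap was not tested. Without the 2 sheep farthest from the median they were 0.512 and 0.673 over all blocks. With the means of cell cycle, type I interferon and general metabolism genes neither gene passed by r (adjusted p from 0.0674 to 0.980), and ABCC3 passed with cell cycle by rho (0.332, adjusted p = 0.0187). Other settings brought further calls for these means. ABCC3, with the muscle mean held, had r = -0.407 with general metabolism (adjusted p = 0.00221) and -0.281 with type I interferon (adjusted p = 0.0462). With the assigned reads held ABCC3 had 0.332 with cell cycle (adjusted p = 0.0160) and ATP8A1 had 0.444 with general metabolism (adjusted p = 0.000800). Without block 1 the r with general metabolism was 0.448 for ABCC3 and 0.495 for ATP8A1 (adjusted p = 0.00290 and 0.000900). The r of ABCC3 and ATP8A1 with the muscle mean after CH4 production was -0.334 (adjusted p = 0.0232) and -0.395 (adjusted p = 0.00615).

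The epithelial differentiation cluster, genes of the cornifying upper layers, had a closer relation with both genes once the muscle content was held constant. Its r with ABCC3 was -0.231 with CH4 production held (adjusted p = 0.118) and -0.638 with the muscle mean held as well (adjusted p = 3.25e-05). With ATP8A1 it was -0.107 (adjusted p = 0.557) and -0.533 (adjusted p = 3.25e-05). Within blocks 1 to 4, with both held, it was -0.762, -0.309, -0.523 and -0.534 for ABCC3 and -0.601, -0.686, -0.505 and -0.456 for ATP8A1. At a given muscle content, sheep with higher ABCC3 and ATP8A1 had lower differentiation genes. Adding the assigned reads gave -0.551 and -0.404 (adjusted p = 6.5e-05 and 0.00263).

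**Figure D5:**
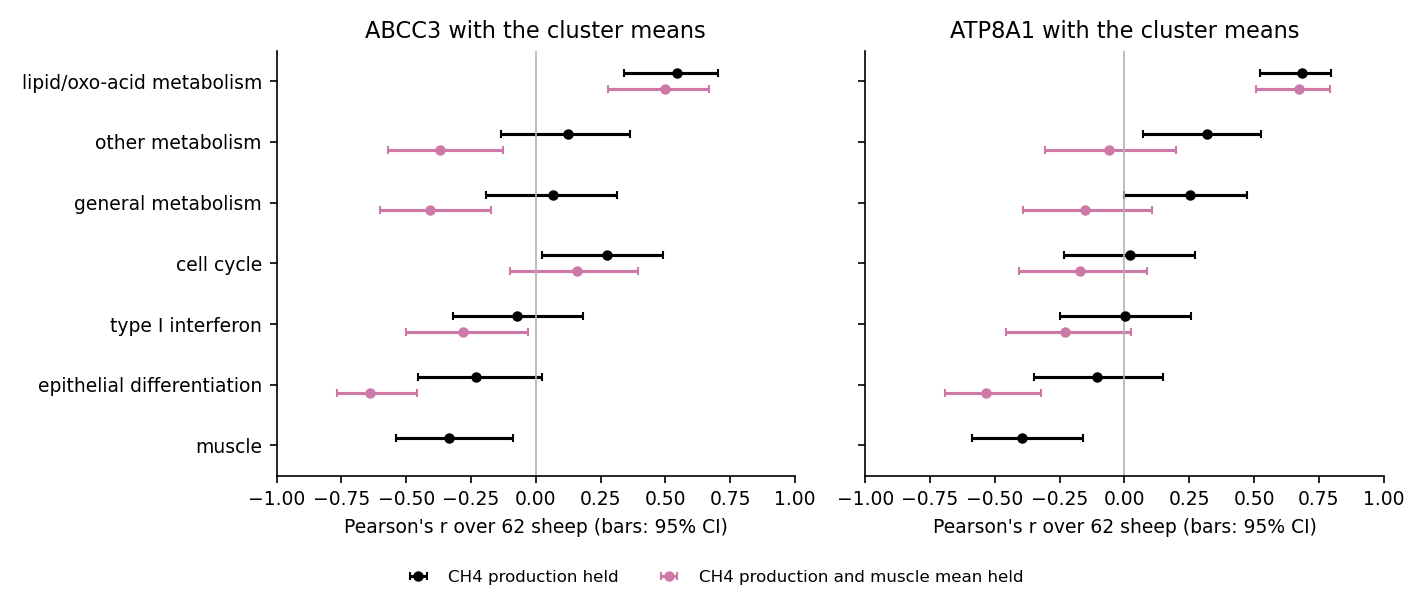
Pearson's r of ABCC3 (left) and ATP8A1 (right) with the mean of each cluster over 62 sheep, with CH4 production held constant (black) and with CH4 production and the muscle mean held constant (pink), bars for the 95% CI. The lipid/oxo-acid coefficients stayed near 0.5 for ABCC3 and near 0.68 for ATP8A1, and the epithelial differentiation coefficients moved to -0.638 and -0.533.

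In block 1 both genes stood further above the rest of their clusters than in blocks 2–4. For ATP8A1 this did not pass with the assigned reads held and was uncertain with the muscle mean held. ABCC3 minus the mean of the other lipid/oxo-acid genes was 1.70 ± 0.33 log2 units in block 1 and 1.25 ± 0.19 in blocks 2–4 (SD, n = 16 and 46), and 15 of the 16 block 1 sheep lay above the median of the others. The difference at a given CH4 production was 0.44 (heteroscedasticity-robust SE 0.0893, permutation p = 1e-05), while the other lipid/oxo-acid genes were lower in block 1 by a difference of -0.33 (SE 0.0805, p = 5e-05). That cluster difference was -0.066 with the muscle mean held as well (SE 0.0597, p = 0.271). ATP8A1 minus the mean of its cluster was 0.69 ± 0.50 in block 1 and 0.36 ± 0.30 in the others. Here the difference was 0.29 (SE 0.131, p = 0.00475), with 11 of 16 sheep above the median of the others. The other genes of its cluster were lower in block 1 by a difference of -0.39 (SE 0.0780, p = 1e-05). That was -0.17 with the muscle mean held as well (SE 0.0504, p = 2e-05). ATP8A1 itself was not higher in block 1 (-0.10, which did not pass). These tests were added after the data were seen. The ABCC3 difference was 0.38 with either the muscle mean or the assigned reads held constant as well (p = 1e-05 each). That of ATP8A1 was 0.24 with the muscle mean (SE 0.14985, p = 0.0363) and 0.098 with the reads (p = 0.279). Permutation takes the spread to be alike in both groups, but for both genes minus their clusters the spread was wider in block 1. The permutation p of these differences may therefore be too small, above all for ATP8A1, whose differences are less large against their SE.

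The genes most like ABCC3 across the 62 sheep, among 1224 with a symbol, included CA12 (r = 0.858), LAMA3 (0.789), IL20RA (0.767) and MAOA (0.761). CA12 is a carbonic anhydrase of the cell surface and LAMA3 is a laminin chain of the epithelial basement membrane. IL20RA is a receptor subunit for cytokines of the interleukin-10 family and MAOA oxidizes monoamines. CA12 ranked first among all 16011 genes. These coefficients are a description, and depth and muscle content, which differed between sheep, were not held constant in them.

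The genes most like ATP8A1 included CA12 (r = 0.834), ACAA2 (0.816), SELENBP1 (0.782) and MAOA (0.778), so CA12 and MAOA recur. ACAA2 is a thiolase of mitochondrial fatty acid oxidation. ABCC3 itself had r = 0.731 with ATP8A1. The lowest coefficients belonged to genes of the muscle cluster, which were KIAA1429 (-0.639), FBXO32 (-0.588) and RNF19A (-0.587) for ABCC3 and UNC13B (-0.577), EFEMP1 (-0.570) and KIAA1614 (-0.568) for ATP8A1.

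With the muscle mean held constant CA12 remained the highest named gene for both (0.844 and 0.806). LAMA3 (0.778), SPTBN1 (0.761) and IL20RA (0.746) were also high for ABCC3, and ACAA2 (0.785), LAMA3 (0.760) and HADH (0.749), another enzyme of fatty acid oxidation, for ATP8A1. The lowest were now genes of the epithelial differentiation cluster. For ABCC3 they were SLC5A1 (-0.746), the sodium-glucose cotransporter, S100A9 (-0.745), a calcium-binding protein of stressed and differentiating epithelium, and the protease Tmprss11g (-0.724). For ATP8A1 they were S100A9 (-0.745), SLC5A1 (-0.705) and TGM3 (-0.698), a transglutaminase that cross-links the cornified envelope.

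None of the genes that work beside ABCC3 passed for CH4 production, where only 0.0125% of all genes did. A count of 0 in this list and in those below is thus no result about its genes. Of all 16011 genes, 7823 had positive slopes. Of 10 enzymes of conjugation, which make the kind of substrates that MRP transporters export, 0 passed in limma, 9 had positive slopes, and the median slope was 0.061 log2 units per 5 g/d against -0.0017 over all genes. UGDH, which supplies activated glucuronic acid, had 0.14 (SE 0.0632, adjusted p = 0.462), the sulfotransferase SULT1C2 had 0.17 (SE 0.0802, adjusted p = 0.532) and SULT2B1, which sulfates cholesterol, had -0.24 (SE 0.0936, adjusted p = 0.401). The other measured members of the ABCC family had -0.07 (ABCC9, SE 0.0527), -0.06 (ABCC1, SE 0.0676) and 0.07 (ABCC5, SE 0.0578), with adjusted p of at least 0.781.

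These neighbors of ABCC3 differed in block 1 and with the muscle mean. Of the conjugation enzymes 9 of 10 fell in block 1, where 19.5% of all genes fell, and 10 of 10 fell with the muscle mean, as 29.1% of all genes did. ABCC1, ABCC5 and ABCC9 all rose in both comparisons, by 0.63, 0.60 and 0.29 log2 units in block 1, where 17.5% of all genes rose (adjusted p = 6.14e-05, 4.83e-06 and 0.0289). ABCC3 had 0.11 in block 1, which did not pass, and fell with the muscle mean. With the muscle mean as a covariate 1 of 10 conjugation enzymes fell in block 1 and 1 of the 3 other ABCC genes rose. Of all 16011 genes 1012 fell and 1062 rose in that fit. All list genes and markers, here and below, were taken from the 1224 genes with a symbol. The symbols came from tables of the study, among them its coexpression clusters, which were built with these libraries. Such genes can move with or against the muscle mean by that choice, so the share over all genes is not a like-for-like background.

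ATP8A1 has 1 other P4-type ATPase in the table with a symbol, ATP9A. Its slope on CH4 production was 0.011 per 5 g/d (SE 0.0549, adjusted p = 0.983), and it rose with the muscle mean by 0.99 (SE 0.0611, adjusted p = 1.95e-22), where ATP8A1 fell. Of 18 genes of membrane lipid synthesis and transfer 0 passed for CH4 production and 9 had positive slopes (median 0.0026 per 5 g/d), with PLTP, a phospholipid transfer protein, at 0.07 (SE 0.0393) and the phospholipase PLA2G4E at -0.20 (SE 0.0710, adjusted p = 0.340). Of 17 genes of vesicle trafficking 0 passed and 9 had positive slopes (median 0.00039), with the recycling endosome GTPase RAB11A at 0.05 (SE 0.0355) and the early endosome GTPase RAB5A at -0.05 (SE 0.0302). The trafficking genes fell in 16 of 17 cases in block 1, against 19.5% of all genes, and in 17 of 17 with the muscle mean, against 29.1%. These shares are not a like-for-like background here either. When the muscle mean was a covariate 6 of 17 fell in block 1, against 1012 of all 16011 genes. Their median difference went from -0.36 to -0.16. In block 1 ATP8A1 differed by -0.10, which did not pass.

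Ketone body genes mostly had positive slopes on CH4 production, as did ABCC3 and ATP8A1. Of 9 measured, 8 had them (median 0.095 per 5 g/d), against 7823 of all 16011 genes. None of the 9 passed, where 0.0125% of all genes did. ACADS, which oxidizes butyryl-CoA, had 0.19 (SE 0.0483, adjusted p = 0.119) and OXCT1, which uses ketone bodies in other tissues, had -0.05 (SE 0.0613). ACADS passed when the muscle mean was a covariate (0.19, adjusted p = 0.0188).

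Other transporters of the plasma membrane differed in direction. Of 11 solute carriers 2 had positive slopes, against 7823 of all 16011 genes, with a median of -0.043 per 5 g/d. None of the 11 passed, where 0.0125% of all genes did. SLC16A1, the monocarboxylate transporter that carries short chain fatty acids and ketone bodies, had 0.16 (SE 0.0582, adjusted p = 0.352), and SLC5A1 had -0.22 (SE 0.0849, adjusted p = 0.385). The V-type ATPase subunits, which acidify endosomes and lysosomes, had 4 of 4 positive slopes with a median of 0.035 and 0 passed, ATP6V1A having the highest (0.07, SE 0.0537). They fell in 4 of 4 cases in block 1, by 0.40 to 0.55 log2 units, where 19.5% of all genes fell. When the muscle mean was a covariate 3 of 4 fell, against 1012 of all 16011 genes, and the median went from -0.51 to -0.30.

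The samples held epithelium and muscle as labeled, judged by the summed level of the markers. None of the 11 epithelium, 10 smooth muscle and 9 fibroblast markers was below 3.11 log2 CPM in any library. Their detection in every library was fixed in advance, since the study kept only genes above 1 CPM in all samples. The summed smooth muscle markers went from 13.3 to 16.2 log2 CPM and had r = -0.372 with ABCC3 and -0.366 with ATP8A1. The summed epithelium markers went from 11.8 to 13.997, with r = -0.124 and -0.0045. These pooled values joined blocks of opposite sign, since r in blocks 1 to 4 was -0.366, 0.391, 0.0143 and 0.533 for ABCC3 and -0.440, -0.0017, 0.336 and 0.712 for ATP8A1. The fibroblast markers went from 11.2 to 13.6, with r = -0.272 and -0.357. In block 1, 10 of 10 smooth muscle and 7 of 9 fibroblast markers rose and 9 of 11 epithelium markers fell, where 17.5% of all genes rose and 19.5% fell. With the muscle mean as a covariate the median differences were -0.17 and -0.11, with 2 smooth muscle and 1 fibroblast marker falling. In the same fit 5 of 11 epithelium markers fell, against 1012 of all 16011 genes. The smooth muscle and fibroblast markers rose with the muscle mean itself (10 of 10 and 9 of 9). Holding it constant therefore removes their rise by construction, and its loss is no result about block 1. The part of cell composition in the CH4 slopes was measured through the muscle mean only, with slopes of 0.17 for both genes when it was held constant.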

How the data were processed

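Libraries from 62 ewes were stranded and depleted of ribosomal RNA. Alignment by the authors used TopHat with Bowtie2 on Ensembl gene models for sheep, to which epidermal differentiation complex genes had been added, and HTSeq gave the reads per gene. The deposited values are log2 CPM from voom, with an offset of 0.5 reads and library sizes adjusted by a normalization factor. They gave whole reads in 100% of cases (tolerance 0.01 reads).

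All genes were fitted in limma (version 3.58.1, R version 4.3.3) with a variance trend, *p* adjusted by Benjamini-Hochberg over 16011 genes and a threshold of 0.05. The fits were tested on simulated data. Relations between sheep used residuals after CH4 production and 2-sided tests of 100000 permutations (Python 3.11.15, numpy 2.4.6, scipy 1.17.1, pandas 2.3.3, plots in matplotlib 3.10.9). Symbols, known for 1224 genes, and clusters came from tables of the study, and no coordinates, gene lengths or sequences were used. The members and lists were chosen with earlier results of these data known. The genes named beside the members are the 5 highest and 3 lowest by *r*, and those of highest and lowest moderated *t* for CH4 production in each list. Some of these are not reported here. Oz151 was left out of DMI and CH4 yield (61 sheep). Alternatives were other variance settings, offsets, filters, normalization, covariates and sheep.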

Additional observations from a re-analysis of the deposited data

How the results depend on the processing

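The slopes of ABCC3 and ATP8A1 on CH4 production stayed within 1 SE of their values under every alternative run (0.15 to 0.18 for ABCC3 and 0.17 to 0.18 for ATP8A1 per 5 g/d). Settings with assigned reads, the tests on assigned reads, on the muscle slope in block 1 and against the own cluster, and coefficients within blocks with the muscle mean held, were added after seeing the data. The causes of the changes below were not tested. Each sheep gave 1 library and the labels carry no replicate numbers. No paired analysis was possible because no sheep was sampled in more than 1 block.

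Held muscle mean. The adjusted p of ABCC3 over blocks was 0.0124 and its block 1 difference 0.32, that of ATP8A1 0.073. The slope of ATP8A1 was 0.20 on DMI and -0.0043 on CH4 yield. Genes called numbered 41 for CH4 production, 1213 between blocks and 2074 for block 1. ABCC3 had r = -0.407 with general metabolism, -0.368 with other metabolism, -0.638 with epithelial differentiation and -0.281 with type I interferon. ATP8A1 had -0.151, -0.0589, -0.533 and -0.231 with the same and -0.172 with cell cycle. The lipid/oxo-acid mean without ABCC3 differed by -0.066 in block 1 (p = 0.271).

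Quantile normalization. The adjusted p of ABCC3 over blocks was 0.0390, its block 1 difference 0.23 and its slope on the muscle mean -0.12. Genes called were 1 for CH4 production and 155 for the muscle slope in block 1, and slopes of SLC9A2 and ATP6AP2 on CH4 production were -0.0031 and -0.0019. That of SLC9A2 was -0.0028 with the muscle mean held.

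Block held constant. The slopes on DMI were -0.0096 for ABCC3 and 0.063 for ATP8A1, those on CH4 yield 0.0013 and -0.0028, and that of ABCC3 on assigned reads -0.35. Genes called were 4 for CH4 production and 82 for assigned reads, ABCC3 and ATP8A1 had r = 0.0919 and -0.0486 with type I interferon, and ATP9A and ARL1 had -0.032 and 0.0012 on CH4 production.

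Without block 1. The slopes on DMI were -0.061 and 0.034, on CH4 yield 0.0039 and -0.0036, and of ABCC3 on assigned reads -0.40. Genes called were 0 for CH4 production, 5816 for the muscle mean and 35 for assigned reads. ABCC3 had r = 0.448 with general metabolism, 0.594 with other metabolism and 0.0085 with type I interferon, and ATP8A1 had 0.495 with general metabolism and -0.0988 with type I interferon. ATP9A, ARL1 and ACSS1 had -0.051, 0.010 and -0.049 on CH4 production.

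Nothing or no CH4 production held. ATP8A1 had 0.48 per kg/d on DMI and -0.0077 on CH4 yield, r = -0.0086 with cell cycle and -0.0378 with type I interferon. ABCC3 had r = -0.317 with epithelial differentiation. Genes called were 3 for live weight and 209 for the muscle slope in block 1.

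Assigned reads held. The block 1 differences were -0.011 for ABCC3 and -0.29 for ATP8A1, the slope of ABCC3 on CH4 yield 0.0020 and ATP8A1 minus its cluster 0.098. Genes called were 6 for CH4 production and 18 for the muscle slope in block 1. ABCC3 had r = 0.332 with cell cycle, and ATP8A1 had 0.444 with general metabolism and 0.0766 with epithelial differentiation. With the muscle mean held as well ABCC3 had -0.289, -0.240 and -0.551 with general metabolism, other metabolism and epithelial differentiation, and ATP8A1 had 0.170 with other metabolism, -0.404 with epithelial differentiation, -0.181 with cell cycle and -0.222 with type I interferon.

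Other settings. Genes called for CH4 production were 1 without the variance trend and 0 among genes that reached 3 CPM in every library, and 2428 for assigned reads with an offset of 2 reads. With oz151, 2 genes were called for CH4 yield. Without oz151 and oz175 there were 14 for DMI and 17 for CH4 yield, and the slope of ABCC3 on CH4 yield was 0.0021. Without the 2 farthest sheep r was 0.290 for ABCC3 with cell cycle and 0.355 for ATP8A1 with general metabolism.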
